A study of Mus musculus with 16 samples.

Results

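The genes described here are 5 mouse ligands of the chemokine receptor CXCR2 (Cxcl1, Cxcl2, Cxcl3, Cxcl5 and Ppbp) and the receptor gene Cxcr2. With them stand the granulocyte growth factor gene Csf3 and its receptor gene Csf3r. All were chosen by name, as all probes that carry these symbols. This gave 8 genes with 1 probe each out of 37008 names on the array, and all 8 were among the 30583 names tested. Pancreatic tumours grown orthotopically in female C57BL/6 mice gave the RNA for 16 one-colour arrays. Tumours were taken after 10 days of ADH-503 (5 samples), after 48 h of ADH-503 (5 samples) or from vehicle-treated animals (6 samples). ADH-503 is a small molecule that binds and activates the integrin CD11b, which neutrophils, monocytes and macrophages carry, and the series asks which tumour genes change after treatment with it. The titles call the treated samples LA1, and their treatment label names ADH-503. The time label of the vehicle samples gives no time, so that the same 6 samples stand against both treated groups. The labels state no tumour cell line, mouse age or dose, and nothing in them tells if the samples of a group are from separate animals, so that p-values measure only the spread between these samples, which may be technical.

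CXCR2 is a G protein-coupled receptor that neutrophils use to follow ELR-type CXC chemokines out of the blood and into inflamed tissue. CXCL1, CXCL2, CXCL3 and CXCL5 are made by epithelial cells, fibroblasts, endothelium and myeloid cells, usually under NF-κB after a signal from interleukin-1, TNF or interleukin-17, while PPBP is stored by platelets and becomes a CXCR2 ligand once it has been cut. CSF3, known as G-CSF, drives the formation of neutrophils in the marrow and their release through its receptor CSF3R, and in pancreatic tumours this axis is known for bringing neutrophils and related myeloid cells into the stroma.

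The 5 ligand genes lie close together on mouse chromosome 5. On build mm9, to which the array files give probe positions, the 60-base probes lie at chr5:91190490-91190549 for Cxcl5, chr5:91198970-91199029 for Ppbp, chr5:91216694-91216753 for Cxcl3, chr5:91322080-91322139 for Cxcl1 and chr5:91334534-91334593 for Cxcl2. The probe for Cxcr2 lies at chr1:74206886-74206945, that for Csf3 at chr11:98564614-98564673 and that for Csf3r at chr4:125721478-125721537. Promoter sequences from 250 bases before to 50 bases after the transcription start were taken from RefSeq on build GRCm38.p6 and matched by symbol for 6 of the 8 genes; Cxcl5 and Csf3 are named only. They were searched on both strands for the NF-κB consensus, a 10-base motif, because the chemokine genes are textbook NF-κB targets. The same 10 bases, in capitals in the stretches below, stand in the promoters of Cxcl1, Cxcl2 and Cxcl3, with their first base 71, 97 and 73 bases before the start, on the gene's strand at chr5:90891154-90891203, chr5:90903782-90903831 and chr5:90786008-90786057.
Cxcl1: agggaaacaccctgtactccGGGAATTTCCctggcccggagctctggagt
Cxcl2: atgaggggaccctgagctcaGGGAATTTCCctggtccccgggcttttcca
Cxcl3: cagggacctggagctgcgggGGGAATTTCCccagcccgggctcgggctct
These exact 10 bases occur on either strand in 0.0883% of the 32851 promoters in the table, and any match to the consensus in 8.46%. The Csf3r promoter held 1 match on the opposite strand, and none was found in this window for Ppbp or Cxcr2; a match is a description of the letters only.

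Values are the log2 processed signal of each array minus that array's 75th percentile over all probes, so that 0 is the 75th percentile and a difference of 1 is 2-fold; probes differ in brightness, so levels are compared between samples and not between genes. The samples were spread over 2 slides, which were scanned in separate sessions. Slide 1 carried 3 of the 10 day, 4 of the 48 h and 1 of the vehicle samples, and slide 2 carried 2, 1 and 5 of them. Between 74.9% and 81.2% of probes were well above background on each array, and no spot was saturated. The titles of vehicle replicate 2 and 48 h replicate 5 carry the same ID number, while the description of the first gives another; the correlation of both arrays over genes was 0.949, lower than in all but 5 of the 120 array pairs, so both stayed in the fits and every difference was repeated with both left out. All 10 ductal and tumour epithelial markers (among them Krt8, Krt19 and Epcam) and 20 of the 21 neutrophil markers tested were well above background on all 16 arrays. In RNA from whole tumour, fewer cells of a type and less RNA per cell cannot be told apart.

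Cxcl3 was the gene of the axis with the clearest difference: its signal was lower at 10 days than in vehicle samples and than at 48 h, although neither difference passed the threshold over all genes. The other 4 ligands, both receptors and Csf3 overlapped broadly between the groups. With limma, 0 of the 8 genes reached an adjusted p under 0.05 in any comparison (the smallest was 0.99994), where 0% of the 30583 genes did so at 10 days against vehicle, 0% at 48 h against vehicle and 0% at 10 days against 48 h. At an unadjusted p under 0.05, 1 of the 8 genes stood out at 10 days against vehicle, against 3.53% (1081) of all genes. At 48 h against vehicle it was 0 of the 8, against 2.56% (783) of all genes, and between 10 days and 48 h it was 1 of the 8, against 3.47% (1062). No gene of the 8 had groups that did not overlap, which held for 0.213% of all genes at 10 days against vehicle, 0.141% at 48 h against vehicle and 0.5% between 10 days and 48 h.

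**Figure D1:**
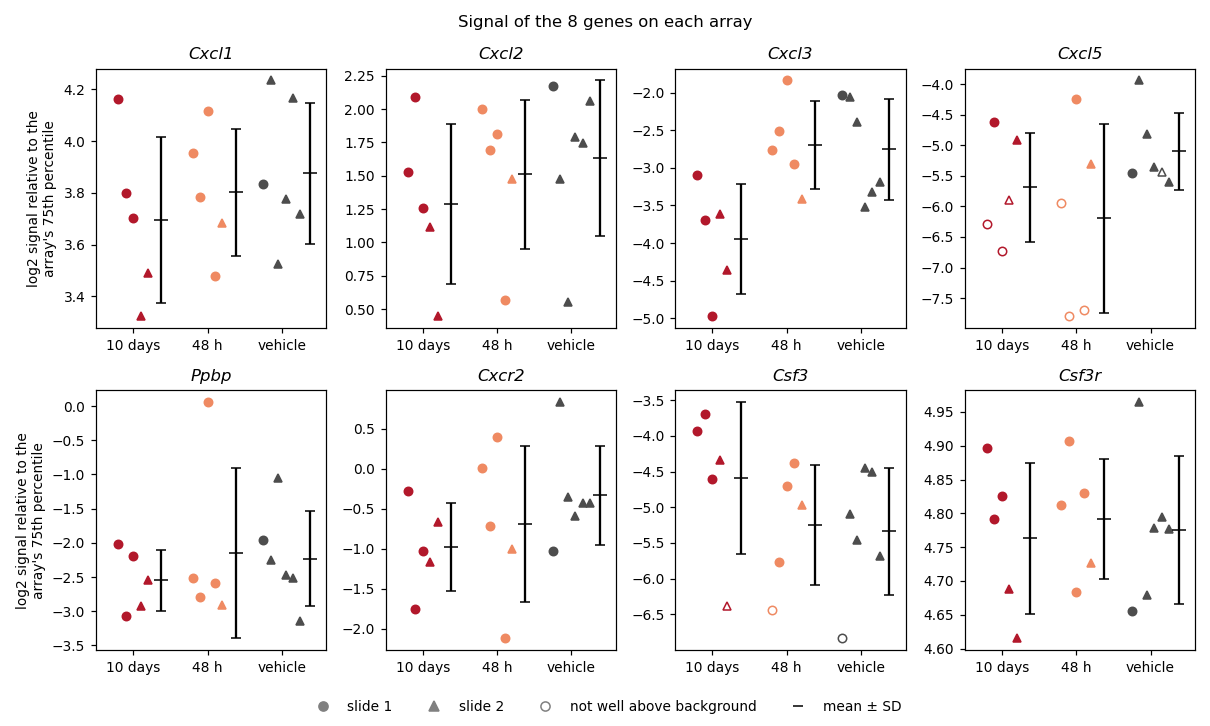
Log2 signal of the 8 genes relative to the array's 75th percentile (y axis, with its own range in each panel) in 5 samples at 10 days, 5 at 48 h and 6 with vehicle. Circles are arrays on slide 1 and triangles arrays on slide 2, open symbols were not well above background, and the bar beside each group is the mean ± SD; the groups overlap for every gene, and the 10 day samples of Cxcl3 run from -4.98 to -3.09 against -3.53 to -2.03 in vehicle samples.

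Cxcl3 had log2 signals of -3.09, -3.70, -4.98, -3.62 and -4.35 in the 10 day samples. It had -2.76, -2.51, -1.83, -2.95 and -3.42 in the 48 h samples. In the vehicle samples it had -2.03, -2.06, -2.38, -3.53, -3.32 and -3.19. All 5 of the 10 day samples lay below the vehicle mean, and 4 of the 5 below the lowest vehicle sample. The log2 difference at 10 days against vehicle was -1.19 ± 0.38 (SE), a 0.437-fold level, with a 95% interval of -2.01 to -0.38, an unadjusted limma p of 0.00676 and an adjusted p of 0.99998. At 10 days against 48 h it was -1.26 ± 0.40 (SE; 95% interval -2.10 to -0.41), with an unadjusted limma p of 0.0065 and an adjusted p of 0.99994. The order of the group means was 48 h, vehicle, 10 days, and the upper neighbours in it, 48 h and vehicle, differed by 0.06 (95% interval -0.75 to 0.87). Within slide 1 the 10 day minus vehicle difference was -1.89 (3 samples against 1), and within slide 2 it was -1.09 (2 against 5). The 10 day minus 48 h difference was -1.41 within slide 1 (3 against 4) and -0.57 within slide 2 (2 against 1). With the slide as a block in the fit the differences were -1.43 and -1.15, with unadjusted limma p-values of 0.00286 and 0.0104. On the same arrays, neutrophil markers were lower at 10 days for 19 of the 21 tested, and acinar markers were lower at 10 days than at 48 h for 10 of the 11, 9 of them with an unadjusted limma p under 0.05 (median -1.10). Ductal and tumour epithelial markers were lower at 10 days than in vehicle samples for 10 of 10 (median -0.50) and lower than at 48 h for 9 of 10 (median -0.58). Over all genes 52.0% were lower at 10 days than in vehicle samples and 48.9% were lower than at 48 h. Between 10 days and 48 h, 3.47% of all genes had an unadjusted limma p under 0.05. The part of neutrophils, acinar cells and epithelial cells in the Cxcl3 difference was not tested.

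Cxcl1, the best known neutrophil attractant of the family in the mouse, differed little between samples. Its log2 signals were 4.16, 3.80, 3.70, 3.32 and 3.49 at 10 days and 3.96, 3.78, 4.12, 3.48 and 3.68 at 48 h, against 3.84, 4.24, 3.53, 3.78, 4.16 and 3.72 in vehicle samples. Both treated groups lay inside the range of the vehicle samples but for 3 arrays, 2 of them at 10 days. The difference from vehicle was -0.18 ± 0.17 (SE; 95% interval -0.54 to 0.18) at 10 days and -0.07 ± 0.17 (SE; 95% interval -0.44 to 0.29) at 48 h.

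Cxcl2, a close paralog of Cxcl1 that myeloid cells also make, spread more widely, with 1.53, 2.09, 1.26, 1.11 and 0.45 at 10 days and 1.997, 1.70, 1.81, 0.57 and 1.47 at 48 h, against 2.17, 1.47, 0.56, 1.79, 1.75 and 2.06 in vehicle samples. Each group held 1 array near 0.5, well under the rest of its group. The difference from vehicle was -0.34 ± 0.33 (SE; 95% interval -1.05 to 0.36) at 10 days and -0.12 ± 0.33 (SE; 95% interval -0.83 to 0.59) at 48 h. For Cxcl1 and Cxcl2 alike the order of the group means was vehicle, 48 h, 10 days, and no neighbours in it differed beyond the spread.

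Cxcl5, a ligand made largely by epithelial cells, was dim: its probe was well above background on 2 of the 5 arrays at 10 days and 2 of the 5 at 48 h, against 5 of the 6 vehicle arrays. Its log2 signals were -6.28, -4.62, -6.73, -5.90 and -4.91 at 10 days and -5.94, -7.80, -4.24, -7.70 and -5.30 at 48 h, against -5.46, -3.94, -4.82, -5.35, -5.43 and -5.60 in vehicle samples. The 2 lowest arrays were both at 48 h and not well above background, so that their order has no meaning. At 48 h against vehicle the difference was -1.10 ± 0.60 (SE; 95% interval -2.39 to 0.19). It was -1.59 without 48 h replicate 3, -0.70 without 48 h replicate 2 and -0.72 without 48 h replicate 4, and with the slide as a block it was -0.69. With normexp background correction and quantile normalization it was -0.18, and the cause of that change was not tested. At 10 days it was -0.59 ± 0.60 (SE; 95% interval -1.88 to 0.70), and leaving out 1 array at a time gave -0.86 to -0.33. Normexp gave -0.19 at 10 days.

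Ppbp, the platelet-stored ligand, was even across samples except for a pair of arrays. Its log2 signals were -2.02, -3.07, -2.20, -2.92 and -2.54 at 10 days and -2.52, -2.79, 0.06, -2.58 and -2.91 at 48 h, against -1.96, -2.25, -1.06, -2.47, -2.51 and -3.14 in vehicle samples. The array of 48 h replicate 3 stood far above all others, and vehicle replicate 3 came next. The difference from vehicle was 0.08 ± 0.48 (SE; 95% interval -0.95 to 1.11) at 48 h and -0.32 ± 0.48 (SE; 95% interval -1.35 to 0.71) at 10 days. Without 48 h replicate 3 the 48 h difference was -0.47. The mean of the 11 platelet markers was -1.71 on that array, within the range of -1.95 to -1.68 over the 48 h group. Pf4, which encodes platelet factor 4 and is also made by macrophages, was at 4.10 on that array and at 3.26 to 3.87 on the other 48 h arrays. Over the platelet list the group ranges were -1.96 to -1.46 at 10 days and -1.95 to -1.68 at 48 h, against -1.92 to -1.51 in vehicle samples, and all 11 markers were among the genes tested. The same array stood apart in other lists, with a fibroblast marker mean of -0.15 against -1.88 to -1.51 on the other 48 h arrays, and with the highest neutrophil marker mean of all 16 arrays (0.53). The part of these cells and of platelets in the high Ppbp value was not tested.

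Cxcr2 itself, the receptor of these 5 ligands and a gene of mature neutrophils, had log2 signals of -0.28, -1.75, -1.03, -1.17 and -0.66 at 10 days. At 48 h it had 0.01, -0.71, 0.39, -2.12 and -1.01, and in vehicle samples -1.03, 0.83, -0.35, -0.59, -0.43 and -0.42. The groups overlapped, with the highest array in the vehicle group (replicate 2) and the lowest at 48 h (replicate 4). The order of the group means was vehicle, 48 h, 10 days, with a difference from vehicle of -0.65 ± 0.42 (SE; 95% interval -1.54 to 0.24) at 10 days and -0.36 ± 0.42 (SE; 95% interval -1.25 to 0.53) at 48 h. Without vehicle replicate 2 the 10 day difference was -0.41. Within slide 1 the 10 day difference was 0.01 (3 samples against 1) and within slide 2 it was -0.72 (2 against 5). The 48 h difference was 0.42 within slide 1 (4 against 1) and -0.81 within slide 2 (1 against 5), so that its sign turned with the slide.

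Csf3, the gene of the granulocyte growth factor, was close to background, with its probe well above it on 4 of the 5 arrays at 10 days and 4 of the 5 at 48 h, against 5 of the 6 vehicle arrays. Its log2 signals were -3.93, -3.70, -4.61, -4.34 and -6.38 at 10 days and -6.44, -5.77, -4.70, -4.38 and -4.96 at 48 h, against -6.83, -5.09, -5.47, -4.45, -4.51 and -5.69 in vehicle samples. It was the only gene of the 8 with a higher mean at 10 days than in vehicle samples, by 0.75 ± 0.53 (SE; 95% interval -0.38 to 1.88). Leaving out single arrays moved it from 0.45 (without vehicle replicate 1) to 1.20 (without 10 day replicate 5, which was not well above background), and normexp gave 0.37. Its direction turned between the slides, with 2.76 within slide 1, where the vehicle sample was not well above background. Within slide 2 it was -0.32, and there 10 day replicate 5 was not well above background. At 48 h the difference from vehicle was 0.09 ± 0.53 (SE; 95% interval -1.04 to 1.21).

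Csf3r, the G-CSF receptor gene, showed almost no spread, with log2 signals of 4.62 to 4.90 (median 4.79) at 10 days and 4.68 to 4.91 (median 4.81) at 48 h, against 4.66 to 4.96 (median 4.78) in vehicle samples. The difference from vehicle was -0.01 ± 0.09 (SE; 95% interval -0.20 to 0.18) at 10 days and 0.02 ± 0.09 (SE; 95% interval -0.17 to 0.20) at 48 h. This probe was brighter than 99.5% of all probes, and its letters are not particular to the gene. Its last 30 bases are shown here with the final 17 in capitals because other probes share them.
Csf3r probe, last bases: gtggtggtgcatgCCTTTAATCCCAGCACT
The 17 bases also stand in 3 other probes of the array, with mean log2 signals of 5.58, 5.13 and -1.33 and thus 2 of them brighter than the Csf3r probe, where the median probe was at -2.42. Runs of 16 bases of the Csf3r probe occurred in 7 other probes, against 1 for Ppbp and 0 for each of the other 6 genes. What part of the Csf3r signal comes from Csf3r transcripts was not tested, and its flat level is therefore not read as a level of the receptor.

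**Figure D2:**
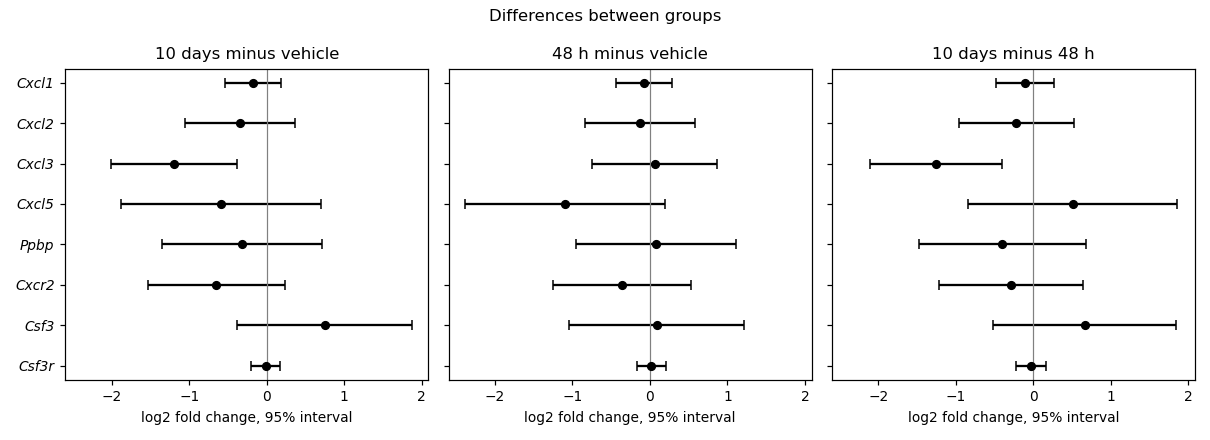
Log2 fold changes of the 8 genes with their 95% intervals (x axis) at 10 days minus vehicle, 48 h minus vehicle and 10 days minus 48 h, from limma. The intervals of Cxcl3 exclude 0 at 10 days against vehicle (-2.01 to -0.38) and at 10 days against 48 h (-2.10 to -0.41), without adjustment over all genes, and all others include 0.

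By direction alone, all 5 ligands had lower means at 10 days than in vehicle samples, as had 7 of the 8 genes. The median log2 difference was -0.33 over the 8 genes beside -0.01 over all genes tested, of which 52.0% were lower. Cxcl5 passed the filter of 5 arrays only through the vehicle samples (5 of 6 arrays, against 2 of 5 in each treated group). Its direction against vehicle, at either time, is therefore no independent sign of a change. The 7 genes also include Csf3r (-0.01), whose probe is not read as a level of the receptor. Leaving out single arrays kept these ligand differences below 0 but moved 4 of them by over 1.5 times: Cxcl1 ran from -0.30 (without 10 day replicate 1) to -0.09 (without 10 day replicate 4), and Cxcl2 from -0.56 (without vehicle replicate 3) to -0.13 (without 10 day replicate 5). Ppbp ran from -0.50 (without vehicle replicate 6) to -0.08 (without vehicle replicate 3), and Cxcl5 from -0.86 (without 10 day replicate 2) to -0.33 (without 10 day replicate 3). Within slide 1 the Cxcl1 difference was 0.05. At 48 h against vehicle 3 of the 5 ligands were lower, and the median over the 8 genes was -0.03 beside -0.01 over all genes, of which 53.2% were lower. At 10 days against 48 h 4 of the 5 ligands were lower, and the median over the 8 was -0.16 beside 0.00485 over all genes, of which 48.9% were lower. These comparisons share samples, and the directions at 10 days hold for values of which only Cxcl3 stood out from the spread.

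Whether the ligands moved with their receptor was asked over the 16 arrays, with permutation p-values adjusted over all 28 pairs of the 8 genes. No pair passed. Cxcl1 lay closest to Cxcr2, with Pearson's r = 0.66 (permutation p = 0.00516, adjusted p = 0.144) and Spearman's rho = 0.63 (permutation p = 0.0113, adjusted p = 0.217). Cxcl5 followed with r = 0.52 and rho = 0.38, then Ppbp with r = 0.48 and rho = 0.48, Cxcl3 with r = 0.46 and rho = 0.53, and Cxcl2 with r = 0.21 and rho = 0.15; their adjusted permutation p-values ran from 0.286 to 0.606 for r. Csf3 went the other way, with r = -0.25 and rho = -0.32.

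**Figure D3:**
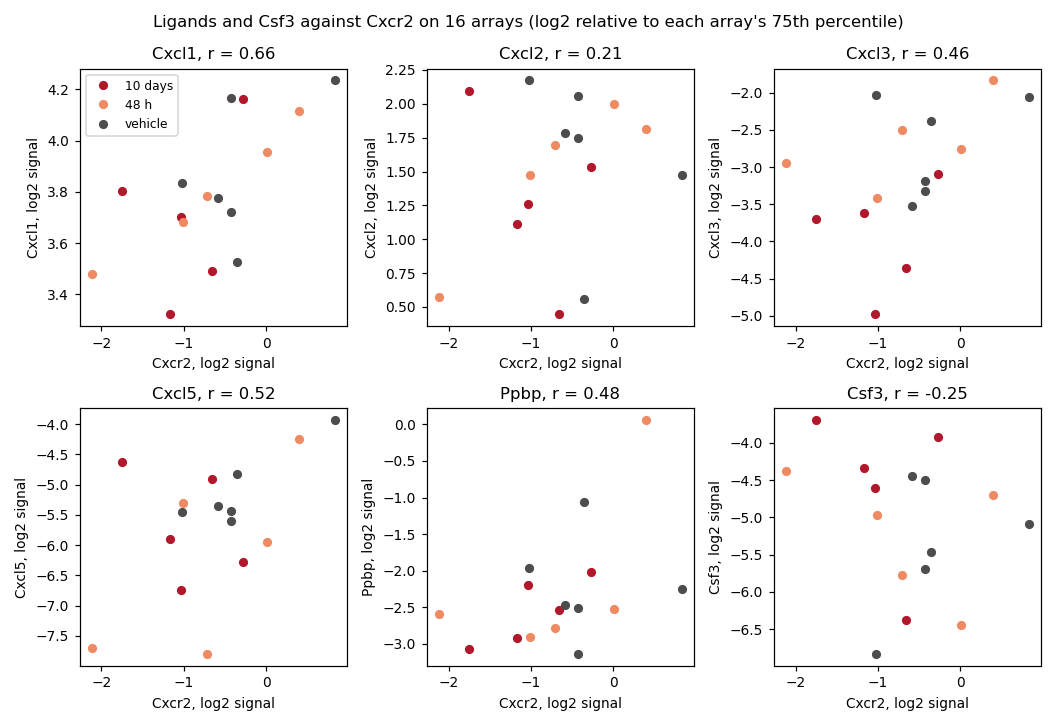
Log2 signal of the 5 ligands and of Csf3 (y axes) against that of Cxcr2 (x axes) on 16 arrays, both relative to the array's 75th percentile and coloured by group. Cxcl1 has the highest correlation (r = 0.66) and Cxcl2 the lowest among the ligands (r = 0.21), while Csf3 has r = -0.25.

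The relation of Cxcl1 to Cxcr2 held its direction within each slide, with r = 0.85 over the 8 arrays of slide 1 (exact permutation p = 0.00883, adjusted 0.247) and r = 0.74 over the 8 of slide 2 (exact permutation p = 0.0221, adjusted 0.193). Taken as deviations from the slide means it was r = 0.75, with a permutation p of 0.00036 and an adjusted p of 0.0101, which is past the threshold. Spearman's rho for the same deviations was 0.67 (permutation p = 0.0056, adjusted p = 0.129), which did not pass. As deviations from the group means it was r = 0.62, with a permutation p of 0.0124 and an adjusted p of 0.348. Without 48 h replicate 4 and vehicle replicate 2, the 2 arrays farthest from the median of Cxcr2, it was r = 0.49 (permutation p = 0.072), so that it rests in part on those arrays. Cxcl5 dropped to r = 0.11 and Cxcl2 to r = -0.01 without them, whereas Ppbp was at r = 0.63 and Cxcl3 at r = 0.50. The Ppbp relation in turn was r = 0.32 without 48 h replicate 3. Among the ligands, Cxcl1 and Cxcl2 correlated at r = 0.58 (permutation p = 0.0178, adjusted p = 0.249), Cxcl1 and Cxcl3 at r = 0.43 and Cxcl2 and Cxcl3 at r = 0.27. Csf3 and the receptor probe Csf3r had r = 0.33 (permutation p = 0.218).

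The same question was put to the mean of 21 neutrophil markers (such as S100a8, S100a9, Ltf, Camp, Ngp and Ly6g), none of which is among the 8 genes, with p-values adjusted over the 8 relations. The mean was taken over log2 values without scaling, so that markers with a wide spread weigh more in it. Over all arrays 4 of the 8 genes passed: Cxcr2 had r = 0.70 (permutation p = 0.00238, adjusted p = 0.019), Cxcl3 r = 0.64 (permutation p = 0.00745, adjusted p = 0.0298), Cxcl1 r = 0.61 (permutation p = 0.0129, adjusted p = 0.0344) and Ppbp r = 0.56 (permutation p = 0.0218, adjusted p = 0.0436). Spearman's rho was 0.68, 0.64, 0.60 and 0.60 for these 4, each with an adjusted permutation p of 0.0317. Cxcl5 had r = 0.41, Cxcl2 r = 0.23, Csf3r r = 0.12 and Csf3 r = 0.0029, and none of these passed. The relations do not hold without 48 h replicate 3 and vehicle replicate 2, the 2 arrays farthest from the median of the marker mean: Cxcr2 was then at r = 0.49, Cxcl3 at 0.47, Cxcl1 at 0.41 and Ppbp at 0.35, with adjusted permutation p-values from 0.374 to 0.448. Leaving out either array alone also left 0 of the 8 genes past the threshold. The marker lists of other cell types were not related to the 8 genes in this way. The ductal and tumour epithelial mean was likewise highest on vehicle replicate 2 (1.33) and lowest on 48 h replicate 4 (-1.47), the arrays with the highest and lowest Cxcr2. Whether these relations are particular to neutrophils was not tested.

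**Figure D4:**
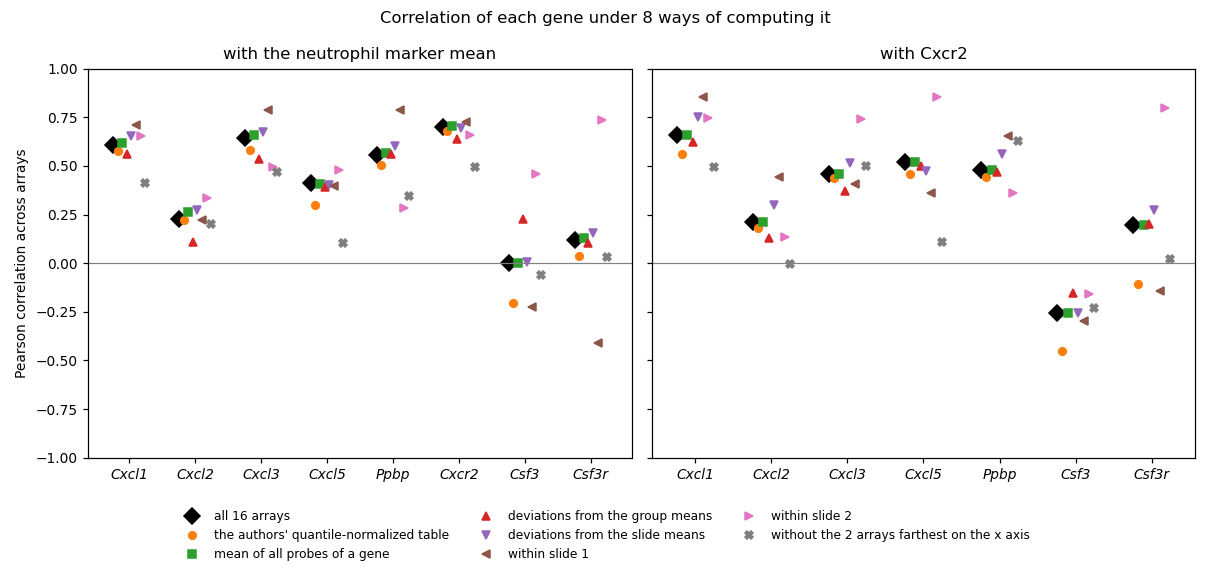
Pearson's r of each gene with the neutrophil marker mean (left) and with Cxcr2 (right) across arrays, computed on all 16 arrays (black diamonds) and in 7 other ways named in the legend. Cxcr2, Cxcl1, Cxcl3 and Ppbp stay above 0 in all 8 on the left, while Csf3 and Csf3r take both signs there.

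Within slide 1 these 4 genes had r from 0.71 (Cxcl1) to 0.79 (Cxcl3) with the marker mean over 8 arrays, and within slide 2 from 0.29 (Ppbp) to 0.66 (Cxcr2). As deviations from the slide means all 4 passed, with r = 0.70 for Cxcr2 and adjusted permutation p-values from 0.0187 to 0.0352. As deviations from the group means none passed, with r from 0.53 to 0.64 and an adjusted permutation p of 0.114 for each. The marker mean was -0.95 to 0.08 at 10 days and -0.60 to 0.53 at 48 h, against -0.51 to 0.43 in vehicle samples, so that it too reached its lowest values at 10 days, with overlap between the groups.

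The neutrophil markers were lower at 10 days than in vehicle samples for 19 of the 21 tested, with a median log2 difference of -0.26, and 3 of the 21 had an unadjusted limma p under 0.05, all of them lower. None of the markers passed after adjustment over all genes (for Ltf, limma's adjusted p was 0.99998). Over all genes 52.0% were lower at 10 days, and 3.53% had an unadjusted limma p under 0.05. Ltf, which encodes the granule protein lactotransferrin, had -2.62 ± 0.78 at 10 days and -0.62 ± 0.81 in vehicle samples (SD, n = 5 and n = 6). Camp, the cathelicidin of the same granules, had -2.57 ± 1.22 at 10 days and -0.998 ± 1.07 in vehicle samples, and Ngp, another granule protein, had a difference of -1.72 ± 0.76 (SE). S100a9, a subunit of calprotectin, differed by -0.77 ± 0.41 (SE) and Ly6g, the surface marker used to sort mouse neutrophils, by -0.38 ± 0.28 (SE). At 48 h against vehicle 15 of the 21 were lower, with a median of -0.10, and 1 had an unadjusted p under 0.05, the peroxidase gene Mpo at -0.90 ± 0.42 (SE). Of all genes, 53.2% were lower at 48 h, and 2.56% had an unadjusted limma p under 0.05.

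**Figure D5:**
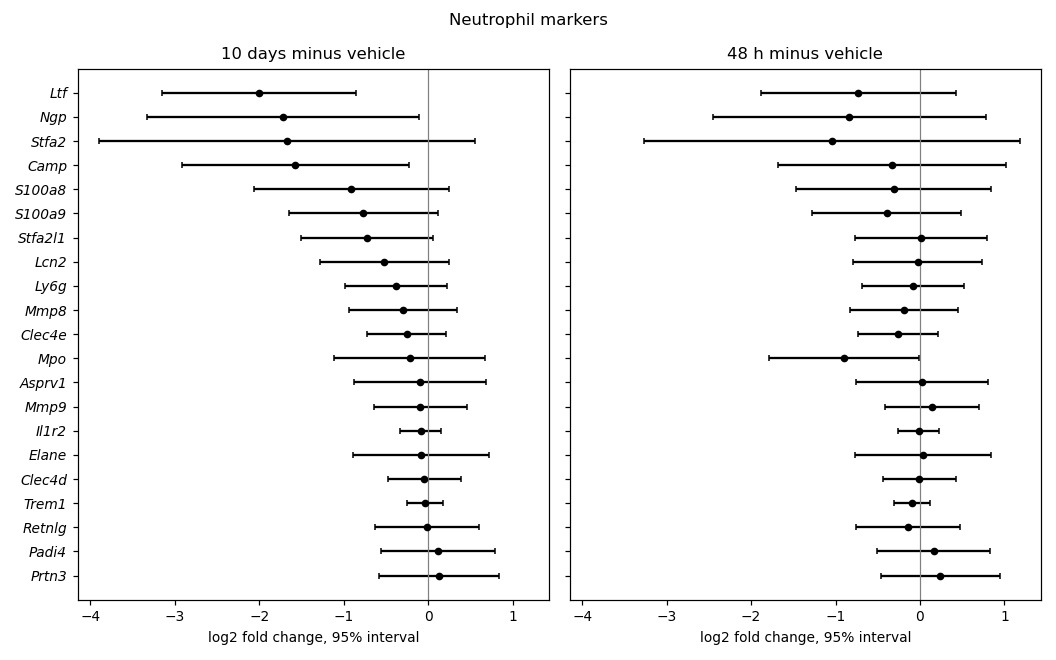
Log2 fold changes of the 21 neutrophil markers with 95% intervals (x axes) at 10 days minus vehicle and 48 h minus vehicle, from limma, ordered by the first. Ltf lies lowest at 10 days (-2.001), and 19 of the 21 markers lie below 0 there.

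The signals that induce the ligands were followed with 10 tested genes for inducers of the chemokines and of Csf3. At 10 days 7 of the 10 were lower than in vehicle samples (median -0.13), at 48 h 4 of the 10 (median 0.04), and 9 of the 10 were lower at 10 days than at 48 h (median -0.20), all without an unadjusted limma p under 0.05. The shares of all genes that were lower in these 3 comparisons were 52.0%, 53.2% and 48.9%. Il1a, the gene of the alarmin interleukin-1α, had -0.65 ± 0.79 at 10 days and 0.12 ± 0.38 in vehicle samples (SD, n = 5 and n = 6). Lif, a cytokine of the interleukin-6 family, had -0.70 ± 0.67 at 10 days and 0.14 ± 0.45 in vehicle samples (SD), and Il1b differed by -0.26 ± 0.14 (SE). Il17ra, the receptor through which interleukin-17 raises these chemokines, differed by 0.39 ± 0.18 (SE) at 48 h against vehicle. None of the 10 passed over all genes, and the 95% intervals of these 4 differences include 0.

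Of the 13 tested genes of signalling below Cxcr2, such as Grk6 (a kinase that desensitises chemokine receptors) and Rac2 (the GTPase that drives neutrophil migration), 9 were lower at 10 days, with a median log2 difference of -0.05, and 7 were lower at 48 h, with a median of -0.01. Of the 9 genes of G-CSF signalling and granulocyte formation 8 were lower at 10 days, with a median of -0.04, and 5 at 48 h, with a median of -0.01. Of the 15 genes for rolling, adhesion and crossing of neutrophils 11 were lower at 10 days, with a median of -0.14, and 9 at 48 h, with a median of -0.01; Ltb4r1, a leukotriene B4 receptor that relays neutrophil recruitment, differed by -0.41 ± 0.22 (SE) at 10 days. A list of 6 further tested genes was set beside the axis, and not all of them are part of it. Of these 6, among them Pf4 and the decoy receptor gene Ackr1, 2 were lower at 10 days and 2 at 48 h. No gene of these 4 lists had an unadjusted limma p under 0.05 in any of the 3 comparisons. Beside these counts, 52.0% of all genes were lower at 10 days and 53.2% at 48 h.

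Markers of other cell types were followed by list. All 10 ductal and tumour epithelial markers were lower at 10 days than in vehicle samples (median -0.50, none with an unadjusted limma p under 0.05), and the list mean ran from -1.30 to 0.50 at 10 days against -0.47 to 1.33 in vehicle samples; epithelial cells also make Cxcl5 and Cxcl1, and their part was not tested. Of the 12 macrophage and monocyte markers 9 were higher at 10 days (median 0.05) and 11 at 48 h (median 0.11). Of the acinar markers, most of them genes of digestive enzymes, 10 of 11 were higher at 48 h than in vehicle samples (median 1.098). An unadjusted limma p under 0.05 held for 7 of the 11, against 2.56% of all genes, and none passed after adjustment. Of the fibroblast markers 7 of 10 were lower at both times (medians -0.12 at 10 days and -0.16 at 48 h), and of the endothelial markers 6 of 7 were lower at both times (medians -0.27 and -0.66). Platelet markers were lower for 4 of 11 at 10 days and 8 of 11 at 48 h (medians 0.06 and -0.27). For comparison with all these lists, 52.0% of all genes were lower at 10 days and 53.2% at 48 h.

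The genes whose signal followed each gene most closely over the 16 arrays were taken as the highest Pearson's r among 18180 named genes well above background on all arrays, as a description that was chosen for being highest. For Cxcl1 they were Spink4 (r = 0.91), Nfkbia (r = 0.88), the gene of an NF-κB inhibitor that NF-κB itself induces, and Tgfb3 (r = 0.88). For Cxcl2 they were Sdc4 (r = 0.87), Tmem213 (r = 0.86) and Arg2 (r = 0.85), an arginase gene. For Cxcl3 they were Hoxc9 (r = 0.88) and the mast cell protease genes Cma1 (r = 0.81) and Tpsb2 (r = 0.79). For Ppbp, Bdh2 came first (r = 0.92, and 0.84 without 48 h replicate 3, left out after seeing the data), for Cxcr2 Cttn (r = 0.89), which encodes the actin-binding protein cortactin, followed by Odc1 (r = 0.87), and for Csf3 2900041M22Rik (r = 0.89).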

How the data were processed

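RNA of 16 tumour samples was measured on one-colour (Cy5) Agilent mouse arrays, after amplification of cDNA per the labels' protocols. Per the submitters' processing notes, Agilent Feature Extraction 11.5.1.1 was used on the images. The processed signal is, per the file headers, an intensity on a linear scale, background-subtracted and detrended over the array, with surrogate values for dim spots. The authors also deposited log2 values of these arrays, quantile-normalized since the sorted columns differ by at most 0.0043; they served as an alternative, and each correlated with its array at r = 0.998 or more.

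From the deposited intensities, log2 processed signals were averaged over the spots of a probe without outlier spots (none among the 8 genes) and control spots (3671 of 62976), and each array's 75th percentile (signals of 4953 to 6736) was subtracted. Names came from RefSeq genes on GRCm38.p6, used for names only: 32989 of 56605 probes matched by accession, 10747 by symbol or synonym, and 12869 kept the file's name. A gene was its brightest probe, and 30583 of 37008 names were tested, being well above background on at least 5 of 16 arrays. Group differences were fitted by limma 3.58.1 under R 4.3.3 (3 groups in 1 model without covariates, robust eBayes without an intensity trend, Benjamini-Hochberg over all genes, threshold 0.05), and the fit was tested on simulated data. Relations across arrays used 100000 permutations, or all 40320 within a slide, 2-sided, in Python 3.11.15. The number of arrays limits the precision.

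Groups came from the treatment and time labels; replicate numbers only name samples. The 8 genes and the 12 lists (141 genes, 132 tested) were chosen with earlier results of these data known. The text names all 8 genes; for each one well above background on at least 12 arrays, up to 3 genes most like it; and up to 4 genes per list with the smallest p against vehicle, to which S100a8, S100a9, Ly6g and Krt19 were added as familiar markers; 1 gene that the rule takes is not reported here. Alternatives were the authors' table, normexp (offset 50) with quantile normalization, other filters and probe rules, an intensity trend, the slide as a block or held fixed, and leaving out arrays.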

Additional observations from a re-analysis of the deposited data

Results flagged for a closer look

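The signal of Ppbp on the array of 48 h replicate 3 was 0.058, far above the other 4 arrays of its group, which ran from -2.91 to -2.52. Its gap to the nearest was 0.867 of the group's whole range, above Dixon's critical value of 0.71. The signal of Cxcr2 on the array of vehicle replicate 2 was 0.83, above the other 5 vehicle arrays at -1.03 to -0.35, with a gap of 0.638 of the range against a critical value of 0.625. This is 1 of the 2 arrays whose titles carry the same ID number. In all, 24 sets of values (8 genes in 3 groups) were looked at, and chance alone marks about 1 in 20 of them. Without 48 h replicate 3 the correlation of Ppbp with the neutrophil marker mean was 0.35, and without vehicle replicate 2 that of Cxcr2 was 0.63.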

How the results depend on the processing

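No difference of the 8 genes passed the adjusted threshold in any fitted alternative. Of 642 alternative values, which include differences within a slide that carry no p-value, 594 kept the sign of the reported difference. Those of Cxcl3 at 10 days against vehicle (-1.89 to -0.82) and against 48 h (-1.47 to -0.57) kept it in all 27 each. Part of this agreement was fixed beforehand. With 1 probe per gene, the other filters and probe rules and the intensity trend cannot change a difference. Nor can leaving out an array of the group outside the comparison. Counts of genes past the threshold were 0 in all 3 comparisons and 1 (4930448H16Rik) without the filter on dim probes for both comparisons with vehicle; leaving out single arrays gave 0 to 1 in each comparison (BE945716 without vehicle replicate 1, Dnaaf4 without vehicle replicate 5, A630052C17Rik without 10 day replicate 4, all named after their values were seen, and none of the 8 genes). By Pearson's r, relations past the threshold numbered 0 of 28 pairs. There was 1 as deviations from the slide means and 1 within slide 2 (Cxcl1 with Csf3r, r = 0.86). With the neutrophil marker mean they numbered 4 of 8 by Pearson's r, but 1 in the authors' table. They numbered 0 as deviations from the group means, within slide 1, within slide 2 and without the 2 farthest arrays. They also numbered 0 without 48 h replicate 3 or vehicle replicate 2, each chosen after seeing the data. The cause of these changes was not tested. Turned signs were, at 48 h against vehicle, Cxcl1 without the pair with the same ID number (0.029), Cxcl3 and Ppbp with the slide as a block (-0.28 and -0.23), Cxcl3 within slides 1 and 2 (-0.48 and -0.52), Ppbp within slide 2 (-0.63), Cxcr2 within slide 1 (0.42), and Csf3r in the authors' table, with normexp, with the slide block and within slide 2 (-0.016, -0.037, -0.021 and -0.072). At 10 days against vehicle they were Cxcl1, Cxcr2 and Csf3r within slide 1 (0.053, 0.0069 and 0.18), Csf3 within slide 2 (-0.32), and Csf3r in the authors' table and without the pair with the same ID number (2.7e-05 and 0.027). At 10 days against 48 h they were Cxcl1, Cxcl2 and Csf3r within slide 1 (0.056, 0.11 and 0.030), Cxcl5, Ppbp, Cxcr2 and Csf3 within slide 2 (-0.10, 0.18, 0.090 and -0.40), Cxcl5 with normexp (-0.0026), and Csf3r in the authors' table and with normexp (0.016 and 0.033). Leaving out single arrays gave, at 48 h against vehicle, Cxcl1 -0.15 to 0.0081, Cxcl2 -0.34 to 0.11, Cxcl3 -0.15 to 0.24, Ppbp -0.47 to 0.32, Cxcr2 -0.63 to 0.0016, Csf3 -0.21 to 0.38 and Csf3r -0.012 to 0.055; at 10 days Csf3r -0.044 to 0.027 against vehicle and -0.062 to 0.0085 against 48 h, and Ppbp -0.59 to 0.15 against 48 h. Correlations with Cxcr2 turned for Cxcl2 without the 2 farthest arrays (-0.0059) and for Csf3r in the authors' table, within slide 1 and without vehicle replicate 2 (-0.11, -0.14 and -0.11, with 0.33 without 48 h replicate 3). With the marker mean they turned for Csf3 in the authors' table, with the mean of probes, within slide 1 and without the 2 farthest arrays (-0.21, -0.0011, -0.22 and -0.063; -0.053 and 0.0052 without each of the 2 arrays), and for Csf3r within slide 1 (-0.41; 0.28 and -0.11 without each). No paired analysis was possible because the replicate numbers only name the samples. Cxcl5 and Csf3 are limited by signal close to background, and the probe filter that needs all 16 arrays leaves them out.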
